A study of Mus musculus with 6 samples.

Results

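Cd74 and the genes of the major histocompatibility complex (MHC) class II pathway were examined in sorted mouse mammary epithelial cells with and without Glis2. The set holds 7 genes: Cd74, H2-Aa, H2-Ab1, H2-Eb1, H2-DMa, H2-DMb1 and Ciita. They were taken by name from the 54418 gene identifiers in the count data, and all 7 were among the 21236 genes with enough counts for testing. The 7 genes were chosen after values of these libraries had been seen, and Cd74 was chosen with its difference between the genotypes known. Every comparison of these 7 genes between the genotypes below is therefore a description and carries no test.

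The libraries came from 3 Glis2 WT (Glis2+/+) and 3 Glis2 KO (Glis2-/-) females of the C57BL/6 strain, all 4 weeks old, with 1 library per mouse. Glis2 encodes a zinc finger transcription factor of the Gli-similar family, and the study asked which genes differ in mammary epithelial cells when it is missing. The KO is carried in the germline, so cells other than the epithelium carried it too. Cells from dissociated glands were stained with a Live-Dead dye and with antibodies against TER-119, CD31, CD45, CD24 and CD49f and then sorted, and the drawn gates are not given in the sources used here. Epithelial markers were present, as Krt8 stood between 1238 and 1950 CPM (counts per gene scaled to a common library size) and Krt5 between 245 and 442 CPM in the 6 libraries. Fibroblast markers were abundant too: 6 of them summed to 2293 to 7727 CPM and exceeded the sum of 9 luminal markers, 3966 to 7029 CPM, in WT libraries 1 and 3 and KO library 3. Total counts per library lay between 24996524 and 31393917. Glis2 transcript was present in all 6 libraries, at 21.7, 23.2 and 19.6 CPM in WT and 10.1, 17.0 and 16.3 CPM in KO. The log2 fold change of Glis2, KO minus WT, was -0.57 (SE 0.22, adjusted p = 0.906 from edgeR). Which exons the mutation removes is not given in the sources used here, so counts over the whole gene may not check the knockout.

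MHC class II molecules are pairs of an alpha and a beta chain that carry peptides from engulfed proteins to the cell surface, where CD4 T cells read them. The chains assemble with the invariant chain, encoded by Cd74, which blocks the peptide groove and guides the complex to endosomes. There proteases degrade the invariant chain, and the H2-DM dimer exchanges its last fragment for a peptide. Ciita is the coactivator that switches the whole set on: it binds no DNA itself but is recruited by factors on the X and Y boxes of class II promoters. B cells, dendritic cells and macrophages express the set constitutively, while many epithelial cells, those of the mammary gland among them, can express it in response to interferon gamma.

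The X and Y boxes are the elements through which Ciita is known to act, so promoter stretches that hold them are given first. Promoters of 250 bases before to 50 after the transcription start were taken from RefSeq on the GRCm38.p6 assembly, with entries for 8 of 12 class II genes searched. Among the 7 genes these were H2-Aa, H2-Eb1, H2-DMa (with 2 start sites) and H2-DMb1. The X box core was searched on both strands as a motif of 11 bases, 3 of which may be any base, and the Y box on both strands as ATTGG, the reverse complement of the CCAAT box bound by NF-Y. The letters do not overlap each other. In the sequences below, which run 5′ to 3′ on the strand of the gene, capitals mark the X box core and the Y box read on that strand.
H2-Eb1, the 150 bases before its start, chr17:34305717-34305866, plus strand: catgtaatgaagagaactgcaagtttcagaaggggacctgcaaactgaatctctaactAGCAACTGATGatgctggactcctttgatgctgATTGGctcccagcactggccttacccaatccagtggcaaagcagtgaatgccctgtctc
H2-Aa, the 150 bases before its start, chr17:34287824-34287973, minus strand: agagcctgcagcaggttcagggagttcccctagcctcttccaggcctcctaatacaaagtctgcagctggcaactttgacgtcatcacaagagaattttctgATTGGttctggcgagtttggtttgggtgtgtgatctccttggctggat
H2-DMb1, 30 bases around its X box core, chr17:34153088-34153117, plus strand: gtttacctAGTAACTGATGatgctaggctg

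The X box core of H2-Eb1 began 92 bases before the start and its Y box 59 bases before it, with 22 bases between the 2 boxes. It also had a Y box on the other strand, 35 bases before the start, which is left in lower case. H2-DMb1 had the same arrangement, at 95 and 61 bases before the start with 23 bases between the boxes. The H2-DMb1 stretch lies within an annotated exon of the gene. H2-Aa had a Y box 48 bases before the start and no exact X box core in this window. Of the 8 class II genes with an entry, 4 held the exact core, H2-Eb1, H2-DMb1, H2-Eb2 and H2-Oa, and all 8 held a Y box on the gene strand, H2-DMa at 1 of its 2 start sites. Of all 32851 promoters of the same length, 318 (0.968%) held the core and 12289 (37.4%) held a Y box on either strand. A core followed by a Y box after 15 to 30 bases, a spacing chosen with these promoters in view, occurred in 7 of all promoters (0.0213%), and 3 of the 7 were H2-Eb1, H2-DMb1 and H2-Eb2. These matches describe letters in a window and no binding was measured.

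**Figure D1:**
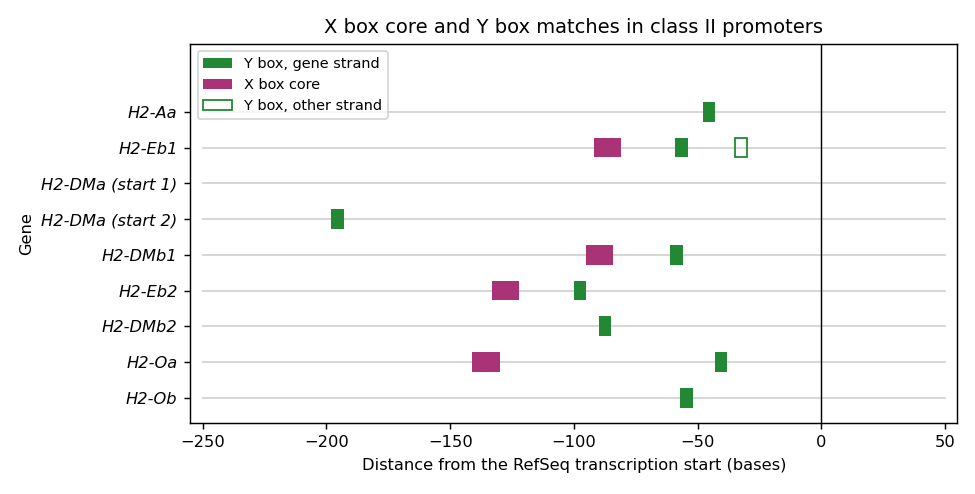
Positions of X box core matches (purple, 11 bases) and Y box matches (green, filled on the gene strand, open on the other strand) in the RefSeq promoters of 8 class II genes, with distance from the transcription start in bases on the horizontal axis. In H2-Eb1, H2-DMb1 and H2-Eb2 the X box core lies upstream of a Y box with 22 or 23 bases between them.

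Cd74 (ENSMUSG00000024610, chromosome 18), the invariant chain gene, stood at 24.4, 9.84 and 15.9 CPM in WT libraries 1, 2 and 3 and at 28.5, 37.6 and 52.1 CPM in KO libraries 1, 2 and 3. Each KO library lay above each WT library, although WT library 1 and KO library 1 were close. The means were 16.7 ± 7.32 CPM (SD, n = 3) in WT and 39.4 ± 11.9 CPM (SD, n = 3) in KO, and the log2 fold change was 1.24 (SE 0.34). In raw counts this was 753, 281 and 414 in WT and 713, 1127 and 1630 in KO, so counting error was small beside the spread between libraries. With 1 library per mouse, that spread does not separate the mouse from the sort and the library preparation. In bulk RNA, a difference in the number of cells of a type and one in the RNA per cell cannot be told apart, which holds for every value below.

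The genes for the classical class II chains lie next to one another on chromosome 17 (GRCm38), H2-Ab1 at 34257689 to 34269419, H2-Aa at 34282744 to 34287823 and H2-Eb1 at 34305867 to 34316674. H2-Aa (ENSMUSG00000036594), the alpha chain of the I-A molecule, stood at 4.86, 1.09 and 3.72 CPM in WT and 8.43, 7.65 and 8.40 CPM in KO. The KO libraries were nearly level and all above WT, and the log2 fold change was 1.34 (SE 0.48). H2-Ab1 (ENSMUSG00000073421), the beta chain that pairs with it, stood at 12.4, 2.84 and 6.14 CPM in WT and 11.3, 13.1 and 20.6 CPM in KO. Here the genotypes overlapped, since WT library 1 exceeded KO library 1, and the log2 fold change was 1.07 (SE 0.48). H2-Eb1 (ENSMUSG00000060586), the beta chain of the I-E molecule, stood at 4.38, 1.3 and 3.19 CPM in WT and 7.87, 5.84 and 11 CPM in KO. All KO libraries lay above all WT libraries, and its log2 fold change of 1.48 (SE 0.46) was the largest of the 7 genes. H2-Ea, the alpha chain partner of H2-Eb1, is known not to be transcribed in mice of the b haplotype such as C57BL/6. It had 2 counts in WT library 2 and 0 in the other 5 libraries, where a count of 0 allows up to 0.12 CPM by counting error alone.

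H2-DMa and H2-DMb1, the chains of the peptide exchange factor, did not share this pattern. H2-DMa (ENSMUSG00000037649, chromosome 17, 34119541 to 34139101) stood at 2.75, 0.77 and 2.76 CPM in WT and 3.00, 2.34 and 1.5 CPM in KO. The genotypes overlapped, and the log2 fold change was 0.12 (SE 0.56). It was -0.28 without WT library 2 and -0.13 without KO library 1. H2-DMb1 (ENSMUSG00000079547, chromosome 17, 34153072 to 34160230) stood at 3.21, 4.69 and 3.22 CPM in WT and 1.84, 2.84 and 3.87 CPM in KO. It was the only one of the 7 genes with a negative log2 fold change, -0.38 (SE 0.38), and its genotypes also overlapped. Both values are uncertain as gene levels. H2-DMa shares its locus with Brd2 on the opposite strand, which had 6788 to 8792 counts per library, and whether the quantification used the strand is not given in the sources used here. H2-DMb1 has a near-identical neighbour, H2-DMb2, between which reads can be split. Their sum was 4.50, 4.69 and 3.72 CPM in WT and 4.92, 4.44 and 5.75 CPM in KO, so that KO library 2 lay below WT libraries 1 and 2.

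Ciita (ENSMUSG00000022504, chromosome 16, 10480059 to 10528418), the coactivator, stood at 1.91, 1.72 and 1.69 CPM in WT and 1.80, 2.80 and 8.21 CPM in KO. KO library 1 lay within the WT range and KO library 3 stood apart from the other 5. The log2 fold change was 1.27 (SE 0.56), and without KO library 3 it was 0.36. In counts, Ciita had 44 to 59 in WT libraries and 45, 84 and 257 in KO libraries. Its locus overlaps Dexi on the opposite strand, which had 138 to 284 counts and was lowest in KO library 3, where Ciita was highest.

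**Figure D2:**
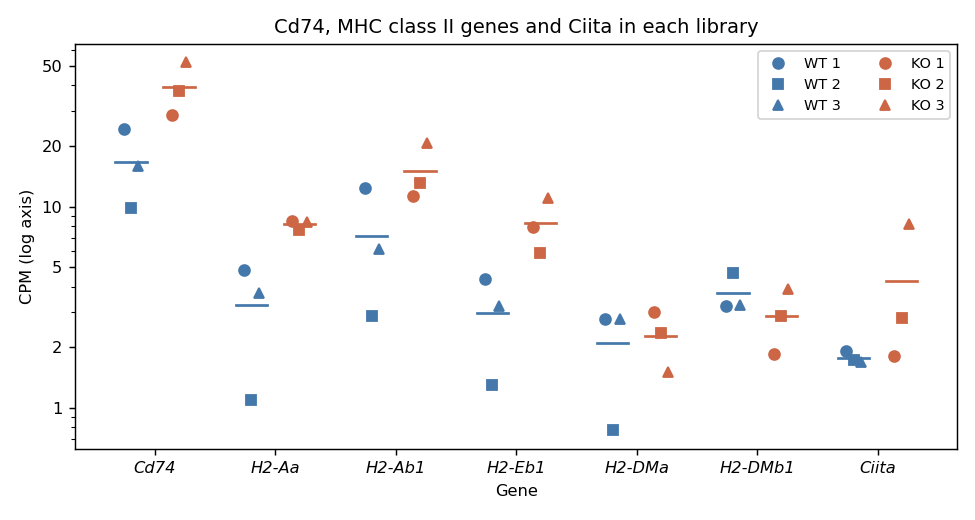
CPM on a log axis for the 7 genes in each of the 6 libraries, with WT in blue, KO in orange, 1 marker shape per library number and a bar at each genotype's mean. Cd74, H2-Aa and H2-Eb1 have all KO points above all WT points, WT library 2 (square) is lowest in 5 of the genes, and KO library 3 (triangle) stands apart for Ciita.

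Across the set, the 3 KO libraries lay above the 3 WT libraries for 3 of the 7 genes, Cd74, H2-Aa and H2-Eb1. The same held for 6.23% of all genes tested. No member had all KO libraries below WT, which held for 5.50% of all genes. Since the genes were chosen on this contrast, nothing is read from the comparison of these shares. The log2 fold change was positive for 6 of the 7 and negative for 1, with a median of 1.24 against 0.01 over all genes tested. Without KO library 3 the median was 0.76. The percentage of tested genes with a larger log2 fold change was between 1.71 and 3.68 for Cd74, H2-Aa, H2-Ab1, H2-Eb1 and Ciita, 35.5 for H2-DMa and 84.6 for H2-DMb1. Across the whole table, 0 of 21236 genes (0.00%) passed an adjusted p of 0.05 with an absolute log2 fold change of 0.58 in edgeR's quasi-likelihood test, and 1130 had an unadjusted p under 0.05. DESeq2 with apeglm shrinkage, the procedure in the study's methods, called 45 of 23738 genes (0.190%).

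The summed level of the 7 genes was 53.9, 22.2 and 36.6 CPM in WT and 62.7, 72.2 and 106 CPM in KO. WT library 2 was lowest for Cd74, H2-Aa, H2-Ab1, H2-Eb1 and H2-DMa, and KO library 3 was highest for Cd74, H2-Ab1, H2-Eb1 and Ciita. The spread within a genotype differed between the genes: the SD of log2(CPM + 0.5) around the genotype means was 0.54 for Cd74, 0.66 for H2-Aa, 0.75 for H2-Ab1, 0.61 for H2-Eb1, 0.63 for H2-DMa, 0.38 for H2-DMb1 and 0.70 for Ciita. Over all 6 libraries, the SD of log2(CPM + 0.5) of Cd74 exceeded that of 95.7% of all genes tested. That of H2-DMb1 exceeded 58.7%.

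The chain genes were nearer to a fixed ratio to Cd74 than the H2-DM genes. The SD over the 6 libraries of the log2 ratio of CPM, which would be 0 for a fixed ratio, was 0.27 for H2-Ab1, 0.37 for H2-Eb1 and 0.49 for H2-Aa, while Cd74 alone ranged 5.3-fold from lowest to highest library. It was 0.60 for Ciita, 0.89 for H2-DMa and 1.12 for H2-DMb1. Ranked by closeness to Cd74 among the 20014 tested genes with counts in every library, H2-Ab1 was at 11, H2-Eb1 at 53, H2-Aa at 203, Ciita at 610, H2-DMa at 7764 and H2-DMb1 at 15102. With a pseudocount of 0.5, H2-Ab1 was at 5, H2-Eb1 at 18 and H2-Aa at 66 among all 21236. These are descriptions over 6 libraries whose depth, preparation and genotype are shared by all genes.

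The 10 genes outside the set closest to Cd74 by this measure were Fam78a, Gm42874, Sox8, Vmn1r18, Cacna1g, A130071D04Rik, Pcdhb9, Il17b, Scarna13 and Casq1, with an SD of the log2 ratio between 0.18 and 0.27. Sox8, a transcription factor gene of the SoxE group, stood at 18.9, 8.02 and 10.4 CPM in WT and 22.0, 23.8 and 29.7 CPM in KO. Il17b, a cytokine gene of the interleukin 17 family, stood at 40.4, 15.5 and 24.1 CPM in WT and 53.0, 45.4 and 62.9 CPM in KO. Both were lowest in WT library 2 and highest in KO library 3, like Cd74. Cacna1g, a calcium channel gene, stood at 14.8, 8.02 and 11.1 CPM in WT and 22.4, 21.9 and 30.5 CPM in KO. The list depends on the measure: 2 of the 10 were also among the 10 with the highest Pearson correlation to Cd74, and 6 among the 10 nearest with a pseudocount of 0.5.

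Levels of different genes were compared per transcript length, in TPM, which scales counts by transcript length and library. The order by mean TPM over all 6 libraries was Cd74 first, then H2-Ab1, H2-Eb1, H2-Aa, the H2-DM genes and Ciita last. Cd74 was at 3.93 ± 1.5 TPM (SD, n = 3) in WT and 8.23 ± 1.75 TPM (SD, n = 3) in KO, and its mean exceeded that of 75.6% of protein-coding genes. H2-Ab1 was at 1.67 ± 1.11 TPM in WT and 3.30 ± 1.07 TPM in KO, H2-Eb1 at 0.902 ± 0.506 and 2.31 ± 0.704 TPM, and H2-Aa at 0.650 ± 0.355 and 1.44 ± 0.262 TPM. H2-DMa and H2-DMb1 had means above that of H2-Aa in WT, at 0.753 ± 0.575 and 0.783 ± 0.120 TPM, and in KO they were below it, at 0.819 ± 0.389 and 0.689 ± 0.135 TPM. Ciita was at 0.0803 ± 0.0195 TPM in WT and 0.208 ± 0.175 TPM in KO, and 11.3% of protein-coding genes had a lower mean. All these TPM values are compressed by Gm23935, a microRNA gene in the annotation that took 83.0% to 85.7% of the TPM of each library.

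Within a library that common factor cancels. H2-Ab1 was at 0.552, 0.283 and 0.348 times the TPM of Cd74 in WT and at 0.367, 0.374 and 0.444 times in KO. H2-Eb1 was at 0.245, 0.144 and 0.255 times in WT and 0.394, 0.195 and 0.270 times in KO, and H2-Aa at 0.153, 0.110 and 0.209 times in WT and 0.238, 0.148 and 0.154 times in KO. The genotypes overlapped in all of these ratios. H2-DMb1 was at 0.127, 0.394 and 0.185 times Cd74 in WT and at 0.0900, 0.0793 and 0.0829 times in KO, with all KO libraries below all WT libraries. Its own TPM overlapped between the genotypes, while Cd74, chosen with its difference known, was higher in every KO library. A gene level between the genotypes thus tends to fall below WT on this scale. The share of all genes that do so is not given here, and nothing is read from this separation. The ratio of H2-DMa to H2-DMb1 lay between 0.182 and 1.81 over the libraries. For scale, Krt8 had 13.4 to 112 times the TPM of Cd74, and H2-K1, a class I heavy chain gene, 10.9 to 86.9 times that of H2-Ab1.

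**Figure D3:**
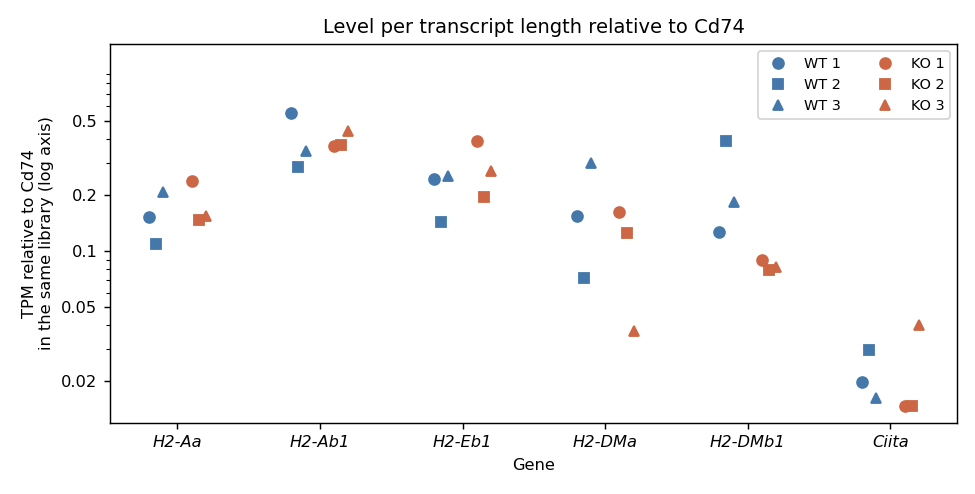
TPM of 6 genes divided by the TPM of Cd74 in the same library, on a log axis, with WT in blue, KO in orange and 1 marker shape per library number. H2-Aa, H2-Ab1 and H2-Eb1 overlap between the genotypes, and H2-DMb1 has all KO points, at 0.0793 to 0.0900, below all WT points. The divisor, Cd74, is itself higher in every KO library than in every WT library, and the TPM of H2-DMb1 alone overlaps.

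Because class II genes are expressed by leukocytes, markers of the cell types that a sort could carry over were measured in the same libraries. The marker lists were chosen with earlier results of these data known, so their p-values are not those of lists set in advance. Ptprc, which encodes the CD45 antigen stained for the sort, was present in all 6 libraries, at 11, 7.98 and 9.67 CPM in WT and 14.8, 14.5 and 38.7 CPM in KO (log2 fold change 1.25, SE 0.39, adjusted p = 0.906 from edgeR). The sum of 8 pan-leukocyte markers was 23, 16.0 and 17.2 CPM in WT and 33.0, 31.3 and 73.6 CPM in KO, 2.45 times higher on average. All KO libraries lay above all WT libraries (two-sided exact permutation p = 0.1, the smallest that 3 against 3 libraries can give, and 0.3 after adjustment over 9 marker lists). The groups did not overlap for 5 of the 8 markers, Ptprc, Laptm5, Coro1a, Itgb2 and Cd52, all higher in KO, against 6.23% of all genes tested. The log2 fold change was positive for 7 of the 8 and -0.48 (SE 1.04) for Tyrobp, and Fcer1g was below all WT libraries in KO libraries 1 and 2. KO library 3 was highest in this sum as in that of the 7 genes, and without it the log2 ratio of the genotype means was 0.78 in place of 1.3.

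B cells, which express class II, were the only immune cell type examined with all KO libraries above all WT libraries in its marker sum. Their 7 markers summed to 14.7, 3.92 and 7.56 CPM in WT and 26.9, 18.2 and 32.4 CPM in KO (two-sided exact permutation p = 0.1, 0.3 adjusted). WT library 2 was lowest and KO library 3 highest, as for Cd74. The same held for the pan-leukocyte, T cell, macrophage, dendritic cell and endothelial sums. Cd79a, a chain of the B cell receptor complex, stood at 1.43, 0.525 and 0.461 CPM in WT and 2.48, 3.31 and 4.47 CPM in KO, a log2 fold change of 2.08 (SE 0.56, adjusted p = 0.906 from edgeR). Of the 6 B cell markers tested, 3 had all KO libraries above WT, Cd79a and Igkc among them, against 6.23% of all genes, while Ms4a1, Pax5 and Ighm overlapped. Ighm, the heavy chain gene of IgM, was at 7.91 CPM in WT library 1 and 5.88 CPM in KO library 2. Cd79b, with at most 3 counts in 4 libraries and 43 and 59 in KO libraries 2 and 3, was too low to be tested. T cell markers summed to 16.9, 9.35 and 10.9 CPM in WT and 14.2, 17.7 and 30 CPM in KO (two-sided exact permutation p = 0.2, 0.45 adjusted). Of the 7, Cd4 and Lck had all KO libraries above WT, 5 had a positive log2 fold change, and the median was 1.17. Cd3e lay between 0.12 and 2.97 CPM.

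Macrophages and dendritic cells express class II as well, and their marker sums overlapped between the genotypes. Macrophage markers summed to 39.6, 24.2 and 38.5 CPM in WT and 34.9, 28.0 and 53.1 CPM in KO (two-sided exact permutation p = 0.7, 0.9 adjusted). Of the 9 macrophage markers, 6 had a positive log2 fold change, the median was 0.28, and only C1qa, a complement gene, had all KO libraries above WT (1.02, SE 0.67, adjusted p = 0.94 from edgeR), against 6.23% of all genes. Adgre1, which encodes F4/80, had a mean below WT in KO, at 2.37, 0.70 and 3.03 CPM in WT and 0.959, 0.467 and 0.639 CPM in KO, with overlap through WT library 2. Csf1r, the receptor that macrophages need, overlapped, at 2.70 to 6.03 CPM in WT and 5.04 to 7 CPM in KO. Dendritic cell markers summed to 15.6, 5.29 and 14.8 CPM in WT and 13.5, 8.88 and 20.7 CPM in KO (two-sided exact permutation p = 0.7, 0.9 adjusted). Of these, Flt3 was between 0.12 and 1.3 CPM, Zbtb46 between 2.49 and 11.2 CPM, and Cd209a had 0 counts in all 6 libraries. Zbtb46 is also expressed by endothelial cells, whose markers summed to 119 to 645 CPM.

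**Figure D4:**
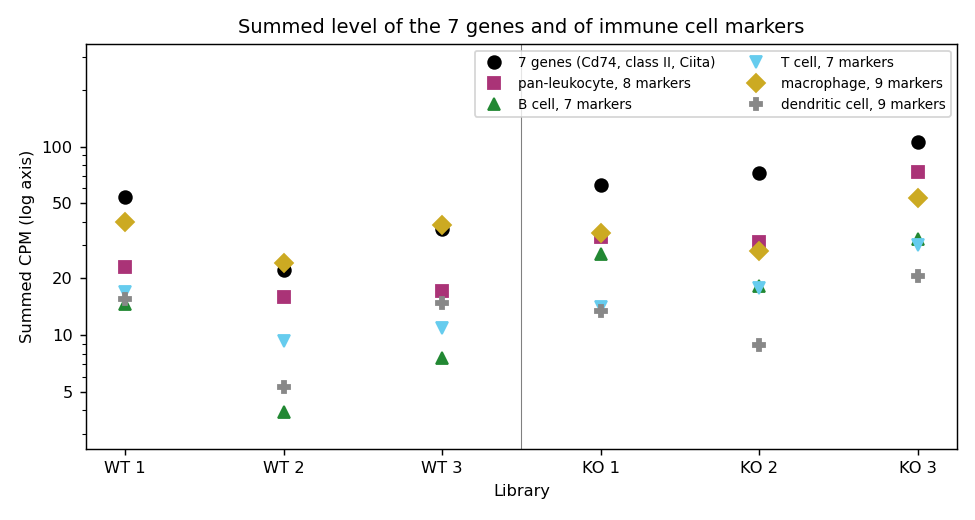
Summed CPM on a log axis in each library for the 7 genes (black circles) and for 5 marker lists of immune cells, with WT libraries left and KO libraries right of the line. The 7 genes, the pan-leukocyte markers and the B cell markers are higher in every KO library than in every WT library, and macrophage, dendritic cell and T cell markers overlap.

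Set against these sums, the difference in Cd74 depended on the markers chosen. Cd74 was at 1.06, 0.615 and 0.924 times the pan-leukocyte sum in WT and at 0.864, 1.2 and 0.708 times in KO, with overlap. Relative to the B cell sum it was at 1.66, 2.51 and 2.10 times in WT and 1.06, 2.07 and 1.61 times in KO, again with overlap. The other genes varied in how they compared with the B cell sum. H2-Eb1 lay between 0.293 and 0.421 times it and H2-Aa between 0.259 and 0.492 times, both with overlap, and Ciita between 0.067 and 0.438 times, also with overlap. H2-Ab1, at 0.723 to 0.843 times in WT and 0.421 to 0.721 times in KO, H2-DMa and H2-DMb1 had all KO libraries below WT on this scale. The B cell sum itself had all KO libraries above WT, so a gene level between the genotypes tends to fall below WT here. The share of all genes that do so is not given, and nothing is read from these separations. Relative to the macrophage sum, Cd74 was at 0.616, 0.406 and 0.412 times in WT and 0.817, 1.34 and 0.980 times in KO, with all KO libraries above WT. H2-Aa, H2-Ab1 and H2-Eb1 also had all KO libraries above WT relative to the macrophage sum, and H2-DMa, H2-DMb1 and Ciita overlapped. The median log2 fold change of the 7 genes was 1.24 per total counts, -0.01 relative to the pan-leukocyte sum and -0.54 relative to the B cell sum. Both of these sums were higher in every KO library, and the median relative to the macrophage sum is not given here. The part of leukocytes in the difference of the 7 genes was not tested.

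Of the non-immune populations, basal markers were the ones with all KO libraries above WT. They summed to 5054, 4532 and 3962 CPM in WT and 5598, 5309 and 6460 CPM in KO, 1.28 times higher on average (two-sided exact permutation p = 0.1, 0.3 adjusted). All 7 basal markers had a positive log2 fold change, with a median of 0.45, and 5 had an unadjusted p under 0.05 in edgeR, against 5.32% of all genes, though none passed the adjusted threshold. Their part in the difference of the 7 class II pathway genes was not tested. Fibroblast markers summed to 7356, 2293 and 7727 CPM in WT and 4256, 2585 and 5884 CPM in KO, with overlap, as for the luminal and endothelial sums (two-sided exact permutation p = 0.6, 0.8 and 0.9). WT library 2, the lowest for most class II genes, also had the lowest fibroblast and endothelial sums.

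Beyond the 7 genes, 50 genes of the pathway were followed in 5 lists, of which 49 had enough counts for testing. With edgeR, 0 of the 49 passed the thresholds in either direction (0.00% of all genes did), the smallest adjusted p was 0.906, and 5 had an unadjusted p under 0.05 (5.32% of all genes). DESeq2 with apeglm also called 0 of them. The median log2 fold change was 0.10, and 10 of the 49 did not overlap between the genotypes, 6 higher and 4 lower in KO, against 11.7% of all genes.

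Among the class II loading factors, 3 of the 11 tested did not overlap between the genotypes, and all 3 were higher in KO, against 6.23% of all genes. H2-Ob, the beta chain of H2-DO, a partner of H2-DM found mainly in B cells, stood at 1.10, 0.42 and 0.691 CPM in WT and 1.44, 2.64 and 5.72 CPM in KO, a log2 fold change of 2.14 (SE 0.63, adjusted p = 0.906 from edgeR). H2-DMb2 stood at 1.3, 0 and 0.499 CPM in WT and 3.08, 1.60 and 1.89 CPM in KO (1.85, SE 1.05, adjusted p = 0.924). Marchf1, a ubiquitin ligase that removes class II from the surface of resting B cells and dendritic cells, stood at 0, 0.42 and 0.461 CPM in WT and 0.759, 1.77 and 2.14 CPM in KO (2.41, SE 1.07, adjusted p = 0.906). H2-DMb2 and Marchf1 each had a WT library at 0 counts, so their fitted values depend on the prior count. Of the proteases and other endosomal factors, Ctsl, Lgmn and Ifi30 were nearly level, with log2 fold changes of 0.19 (SE 0.11), 0.06 (SE 0.15) and 0.00 (SE 0.13). Ctss, which cleaves the invariant chain in leukocytes, had 0.13 (SE 0.48) and ranged from 1.61 to 5.72 CPM over the libraries, with overlap. The median of the 11 tested genes in this list was 0.19.

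The list of 8 factors that bind the X and Y boxes or act at these promoters had a median log2 fold change of 0.11. Rfx5, the DNA-binding subunit of the RFX complex, had a value of 0.07 (SE 0.14). Its partners Rfxap and Rfxank had 0.21 (SE 0.15) and 0.25 (SE 0.21) (adjusted p = 0.941 for both in edgeR), and Rfxap did not overlap, at 17.7 to 20.4 CPM in WT and 20.9 to 23.4 CPM in KO. The NF-Y subunits went both ways, Nfya at 0.38 (SE 0.16, adjusted p = 0.906) and Nfyc at -0.20 (SE 0.11, adjusted p = 0.92). Nfyc did not overlap, with 57.2 to 60.8 CPM in WT and 47.8 to 54.9 CPM in KO.

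The signal from interferon gamma to Ciita was followed through 9 genes, with a median log2 fold change of 0.05. Ifngr1, the ligand-binding receptor chain, had a value of 0.15 (SE 0.15, adjusted p = 0.946 from edgeR) and Irf1, a transcription factor induced by the signal, -0.11 (SE 0.17). Usf1, a factor at a Ciita promoter, was the only one of the 9 without overlap, against 11.7% of all genes, at 26.9 to 30.5 CPM in WT and 31.4 to 36.9 CPM in KO (0.27, SE 0.13, adjusted p = 0.906).

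Class I presentation, which is also under interferon control and has its own coactivator related to Ciita, Nlrc5, had a median log2 fold change of 0.20 over 15 genes. B2m, the light chain, had the largest value, 0.51 (SE 0.26, adjusted p = 0.917 from edgeR), at 80.6, 46.1 and 66.9 CPM in WT and 94.8, 62.6 and 118 CPM in KO, with overlap and with WT library 2 lowest and KO library 3 highest. The heavy chain genes H2-K1 and H2-T23 had 0.14 (SE 0.11) and 0.46 (SE 0.17, adjusted p = 0.906). Psmb9, an immunoproteasome subunit, had all KO libraries above WT, at 3.88 to 4.83 and 5.21 to 6.36 CPM (0.42, SE 0.26, adjusted p = 0.935). Pdia3, a chaperone of class I loading, had all KO libraries below WT, at 536 to 562 and 413 to 486 CPM (-0.26, SE 0.09, adjusted p = 0.906).

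At the cell surface CD74 also acts as a receptor for the cytokine MIF, together with CD44 and chemokine receptors. The 6 genes of this group had a median log2 fold change of -0.11. Mif had 40.6 to 45.9 CPM in WT and 43.1 to 45.2 CPM in KO, with a log2 fold change of 0.00 (SE 0.11). Both genes without overlap were lower in KO, against 5.50% of all genes. Cd44, the signalling partner, stood at 137, 172 and 144 CPM in WT and 124, 108 and 129 CPM in KO (-0.33, SE 0.12, adjusted p = 0.906 from edgeR), and Ddt, a homologue of Mif, at 7.42 to 10.8 and 5.37 to 7.28 CPM (-0.42, SE 0.26, adjusted p = 0.935).

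**Figure D5:**
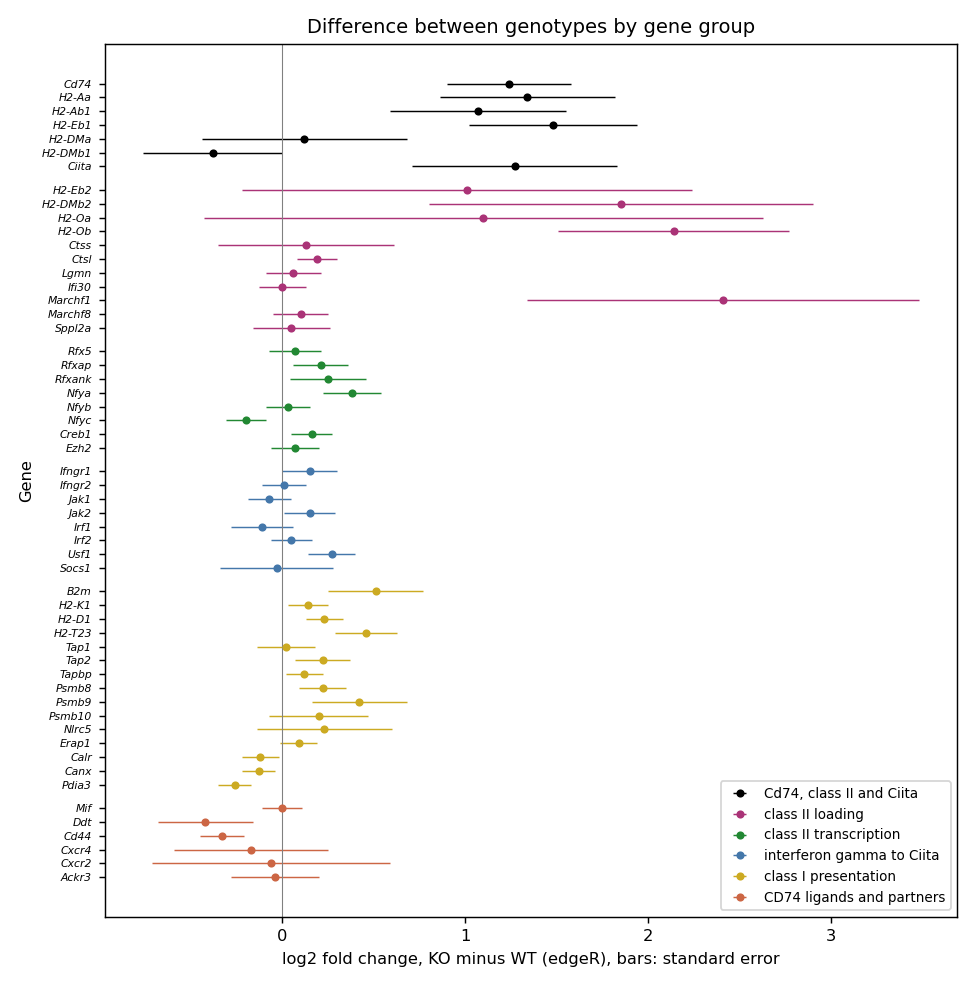
Log2 fold change, KO minus WT, from edgeR with its standard error for the 7 genes (black) and for genes of the 5 pathway lists in other colours. Cd74, H2-Aa, H2-Ab1, H2-Eb1 and Ciita lie between 1.07 and 1.48, H2-DMa at 0.12, H2-DMb1 at -0.38, and the factors upstream of Ciita and the class I genes between -0.26 and 0.51.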

How the data were processed

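RNA from cells sorted from 6 mice, 1 library each, was sequenced from 1 ng with a stranded total RNA kit. The authors quantified reads with Salmon 1.2.1 on an mm10 transcriptome and summed transcripts to genes with tximport. The deposited expected counts are unscaled and held as whole numbers, while the deposited log2 values are log2(TPM + 1). Of 54418 identifiers, 54166 were matched to GENCODE symbols on GRCm38. TMM-scaled CPM were computed, and 21236 genes passing filterByExpr were fitted with edgeR 4.0.16 (quasi-likelihood, Benjamini-Hochberg adjustment, R 4.3.3), tested on simulated data. Calls needed an adjusted p of 0.05 and an absolute log2 fold change of 0.58, the thresholds of the study. The biological coefficient of variation of the edgeR fit, between libraries of 1 mouse each, was 37.4%. No library was a copy of another (lowest chi-square divided by its degrees of freedom, 18.8). Alternatives used DESeq2 1.42.0 with apeglm 1.24.0 and limma 3.58.1 on the TPM values. Marker sums were compared by exact permutation tests over libraries. Floors of 3 counts cover counting error only. The members and lists were chosen with earlier results of these data known. Genes named were the 7 members, H2-Ea, the 10 genes closest to Cd74 by the SD of the log2 CPM ratio, fixed defining markers and, of each pathway list, those without overlap between genotypes and the 2 with the largest absolute change. Pathway genes outside this rule, and Coro1a, Itgb2, Cd52, Laptm5, Igkc, Ms4a1, Pax5, Ighm, Cd4, Lck, C1qa, Tyrobp, Fcer1g and Cd79b, were named after their values were seen. Single values of some listed genes are not reported here, and the authors' other experiments were not analysed here.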

Additional observations from a re-analysis of the deposited data

How the results depend on the processing

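Over all genes, 0 were called with TMM or DESeq2 size factors, in genes with 10 or more counts in each library, without the fold threshold, with log2(TPM + 1) in limma and with each library left out (0 to 0). Without a filter on low counts 40 were called, with DESeq2 and apeglm 45, and with log2(TPM + 0.1) in limma 2. The pathway lists had 0 calls in every setting run, which leaving out libraries did not alter (0 to 0). The median log2 fold change of the 7 genes, 1.24, was 0.00 with DESeq2, which shrinks H2-Ab1, H2-DMa, H2-DMb1 and Ciita to 0.00 but keeps Cd74 at 1.05, H2-Eb1 at 1.11 and H2-Aa at 0.79. It was 0.58 with log2(TPM + 1). Relative to the pan-leukocyte or B cell sum, both higher in every KO library and added as scales after the data were seen, it was -0.01 and -0.54. With each library left out it lay between 0.76, without KO library 3, and 1.60. Beside DESeq2, the sign of each gene was kept in all 9 refits made for single genes, left-out libraries included, except for H2-DMa, which kept it in 7. With log2(TPM + 1), Cd74 was 0.94, H2-Aa 0.58, H2-Eb1 0.82 and Ciita 0.15. With each library left out, Cd74 lay between 0.97 and 1.60, H2-Eb1 between 1.12 and 1.86, H2-Aa between 0.93 and 1.75, H2-Ab1 between 0.70 and 1.73, H2-DMb1 between -0.68 and -0.15, H2-DMa between -0.28 and 0.37, and Ciita between 0.36 and 1.64. The log2 ratio of the pan-leukocyte sums, 1.3, lay between 0.78, without KO library 3, and 1.51, and was 0.84 from summed TPM. The X box core was found in 6 class II promoters with up to 1 mismatch, as in 20.8% of all promoters.

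Whether same-numbered mice of the 2 genotypes were paired is not given in the sources used here. The correlations of same-numbered deviations were -0.0218, 0.173 and 0.0233, which cannot exclude a pairing. With the replicate block, 0 genes were called, 0 pathway genes among them, the median of the 7 genes was 1.28 and the log2 ratio of the pan-leukocyte sums 1.2. Depth limits the low genes: H2-DMa and H2-DMb1 had 22 to 134 counts per library, and H2-DMb2, Marchf1 and H2-Ea had libraries at 0.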
